A study of Mus musculus with 16 samples.

Results

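The 39 genes of the 4 mouse Hox clusters were described in tail tendon fascicles, the collagen strands drawn out of the tail, from wild type mice and from mice in which Vhl is deleted by ScxCre. Every gene symbol made of Hoxa, Hoxb, Hoxc or Hoxd and a number was taken, which gave 39 of the 25719 listed genes: 11 of HoxA on chromosome 6, 10 of HoxB on chromosome 11, 9 of HoxC on chromosome 15 and 9 of HoxD on chromosome 2. RNA of 16 libraries was sequenced, 8 with the genotype label WT and 8 with the label KO, which the series' design text gives as ScxCre;Vhlf/f, a floxed Vhl with a Cre driven by Scx. Scx marks the tendon lineage, so the deletion is limited to cells that have used that promoter, while the labels give the RNA as that of all cells of the tissue. Age, sex, strain and whether the wild type mice carried the floxed allele or the Cre are not given in the labels, nor is it stated that each library is 1 animal, so p-values measure the spread between these libraries.

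Hox genes encode homeodomain transcription factors that record the position of a cell along the body axis. In each cluster the genes lie in a row, and genes with low paralogue numbers are used from the hindbrain backwards while those with the highest numbers are used at the caudal end and in the distal limb. Fibroblasts and other connective tissue cells of the adult keep a Hox pattern that reflects where in the body they came from. VHL, the substrate receptor of a ubiquitin ligase, marks the HIF alpha subunits for degradation, and HIF binds DNA at a short core of the letters ACGTG or GCGTG.

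Vhl itself was lower in the knockout, with 14.1, 20.6 and 25.8 CPM (counts scaled to a common effective library size) as the lowest, median and highest wild type library and 7.51, 9.52 and 10.9 CPM in the knockout. Knockout libraries held 10488355 to 18753254 counts each and wild type libraries held 10792900 to 16379401 (two-sided exact permutation test, p = 0.620). Marker genes are counted as risen or fallen at an adjusted p under 0.05 in the fit described below. Of all tested genes 25.6% were higher in this way and 22.7% lower, the shares to set beside the marker counts. Of 20 tenocyte markers 3 rose and 11 fell, their sum being 94130 to 196005 CPM in the knockout and 147590 to 398954 CPM in the wild type. Markers of other cells moved too: 9 of 11 tested endothelial markers of a list of 15 rose (summed 86.6 to 684 CPM against 52.6 to 71.5 CPM, with no overlap), and so did 6 of 9 tested mural markers of 11 (374 to 2213 against 359 to 515 CPM), while 1 mural marker fell. Knockout libraries 6, 7 and 8 and wild type library 5 held the most skeletal muscle message, 17783 to 25771 and 11238 CPM of 15 muscle genes, against 102 to 4095 CPM in the other 12. Chondrocyte markers summed to 156 to 501 CPM in the knockout against 833 to 1818 CPM, with no overlap, and 3 of the 8 tested markers of that list of 11 rose and 3 fell. All 5 tested erythroid markers of 6 rose (77.3 to 559.6 against 15.1 to 50.7 CPM in sum, with no overlap), and osteoblast sums lay at 9.44 to 22.1 against 4.42 to 8.94 CPM, also without overlap, with 1 of 2 tested markers of 9 higher and 1 lower. The 11 keratinocyte markers summed to 29.4 to 36.2 CPM in the knockout and 32.7 to 66.1 CPM in the wild type, and of 5 tested 1 rose and 3 fell, while Krt5, Krt14, Krt1, Krt15 and Dsg3 of that list stayed at or under 3 counts in every library. So did 11 of 12 listed hair follicle genes. Counts of Uty, Ddx3y, Kdm5d and Eif2s3y, which lie on the Y chromosome, were present in 4 libraries, knockout 1 and 6 and wild type 7 and 8, at 2030 to 4291 counts in sum, and were 0 or 1 in the other 12. In RNA from whole tissue, fewer cells of a type and less RNA per cell cannot be told apart, and the part of these shifts in the Hox values was not tested beyond the values given.

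Wild type fascicles carried a caudal Hox pattern. On the scale of CPM per kb of exon, which allows genes to be compared, Hoxb9 was highest at 15.2 ± 4.34 (SD, n = 8), followed by Hoxb13 at 14.6 ± 2.53, Hoxa13 at 12.6 ± 1.95 and Hoxc12 at 12.2 ± 2.72 CPM per kb. Hoxa10 (8.92), Hoxa11 (8.41), Hoxb6 (7.32) and Hoxc10 (7.25) came next. The ranges of each gene and the next in this order overlapped down to Hoxc10, and every wild type value of Hoxc10 lay above every value of Hoxc11 (4.94 CPM per kb). Hoxb3 (4.90), Hoxc13 (4.23), Hoxc9 (3.65), Hoxb5 (3.37), Hoxb7 (3.28) and Hoxb4 (2.99) formed the middle of the order. Hoxc6 (2.29), Hoxc5 (2.27), Hoxa9 (2.26), Hoxc8 (1.93), Hoxb2 (1.91), Hoxa7 (1.69), Hoxc4 (1.62) and Hoxb8 (1.45) lay below them. The first 8 places were the same when the longest transcript replaced the union of exons as the length, whereas Hoxa9 moved from place 18 to place 13. Summed over the clusters, paralogues 9 to 13 held 71.5% of the wild type Hox level per kb and paralogues 1 to 8 held 28.5%.

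**Figure D1:**
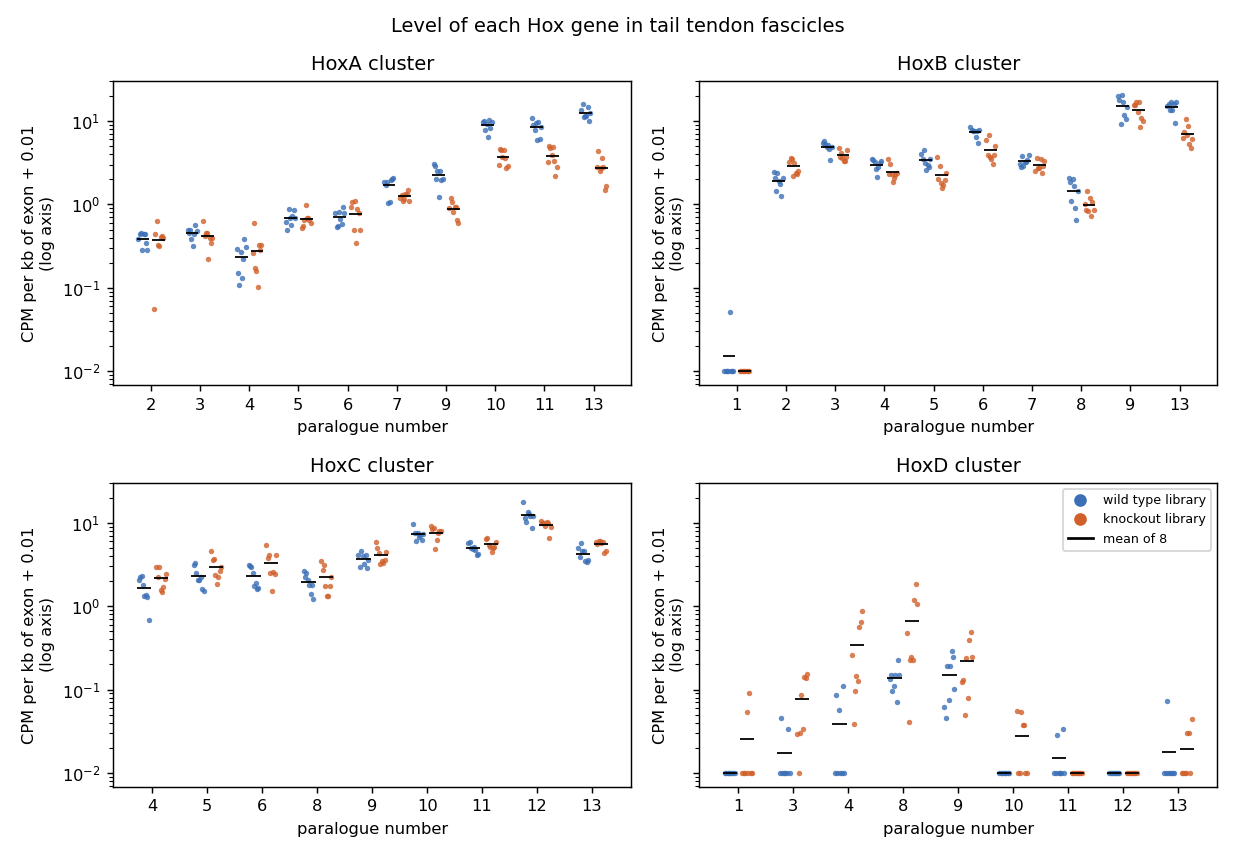
Level of 38 Hox genes by cluster and paralogue number, in CPM per kb of exon with 0.01 added (log axis). Each point is 1 library, blue for wild type and orange for knockout, and black lines are means of 8. Mean HoxA levels climb with paralogue number in the wild type, with lower steps at Hoxa4 and Hoxa11, and the knockout points lie under the wild type points from paralogue 9 to 13, while HoxD is low in the wild type and Hoxd4 and Hoxd8 reach higher levels in some knockout libraries.

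Within HoxA the mean wild type level climbed along the row, with lower steps at Hoxa4 and Hoxa11, from 0.374 CPM per kb at Hoxa2, 0.443 at Hoxa3, 0.224 at Hoxa4, 0.678 at Hoxa5 and 0.693 at Hoxa6 to the levels of Hoxa10, Hoxa11 and Hoxa13. HoxD was nearly silent, its 9 genes together at 0.314 ± 0.131 CPM per kb (SD, n = 8), and Hoxd9 (0.139) and Hoxd8 (0.126 CPM per kb) were its highest members. HoxB made up 41.7% of the summed wild type level per kb, HoxC 30.6%, HoxA 27.5% and HoxD 0.238%. In the knockout these shares were 40.5%, 42.9%, 15.3% and 1.31%. Levels of HoxA in sum, 28.2 to 41.6 CPM per kb in the wild type and 11.4 to 19.99 in the knockout, did not overlap, whereas those of HoxC, 31.4 to 53.2 and 36.3 to 53.9 CPM per kb, overlapped.

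A fit over all genes, edgeR's quasi-likelihood test with Benjamini-Hochberg adjustment over 14803 tested genes, was used for the differences, with an adjusted p under 0.05 as the threshold. A filter on low counts left 25 of the 39 Hox genes: 7 of HoxA, all 9 of HoxC, 9 of the 10 of HoxB and none of HoxD. Of these 25, 13 passed the threshold, beside 48.3% of all tested genes, so that the share of Hox genes past it, 52%, was near the background. The directions were unequal: 11 Hox genes (44%) were lower in the knockout, beside 22.7% of all tested genes, and 2 (8%) were higher, beside 25.6%. The median log2 fold change was −0.19 over the 25 Hox genes and 0.02 over all tested genes. By cluster, 5 of 7 HoxA genes fell (median −1.17), 5 of 9 HoxB genes fell and 1 rose (median −0.35), and 1 of 9 HoxC genes fell and 1 rose (median 0.17). Among 11 tested genes of paralogues 9 to 13, 6 fell and 1 rose (median −0.39), and among 14 of paralogues 1 to 8, 5 fell and 1 rose (median −0.15).

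Scaling by total counts in place of TMM, edgeR's default scaling, raised the median of all genes to 0.32, and the share of higher genes among all called genes from 53.0% to 85.4%. On that scale 6 Hox genes were lower and 8 higher, beside 9.56% and 55.9% of all tested genes (65.4% in either direction). With no filter on low counts 11 Hox genes were lower and 6 higher, beside 17% and 21.4% of all genes then tested (38.4% in either direction). The HoxA genes 9 to 13, Hoxb6 and Hoxb13 stayed lower and past the threshold on both scales. Without the 4 libraries of highest muscle level, an alternative chosen after the data were seen, 9 Hox genes were lower and 3 higher. Without the 4 libraries with Y-linked counts, likewise chosen afterwards, 10 were lower and 2 higher. Fewer of all genes passed in each of these settings than with every library. Their shares by direction are not given, so the lean toward lower Hox genes has no background there.

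**Figure D2:**
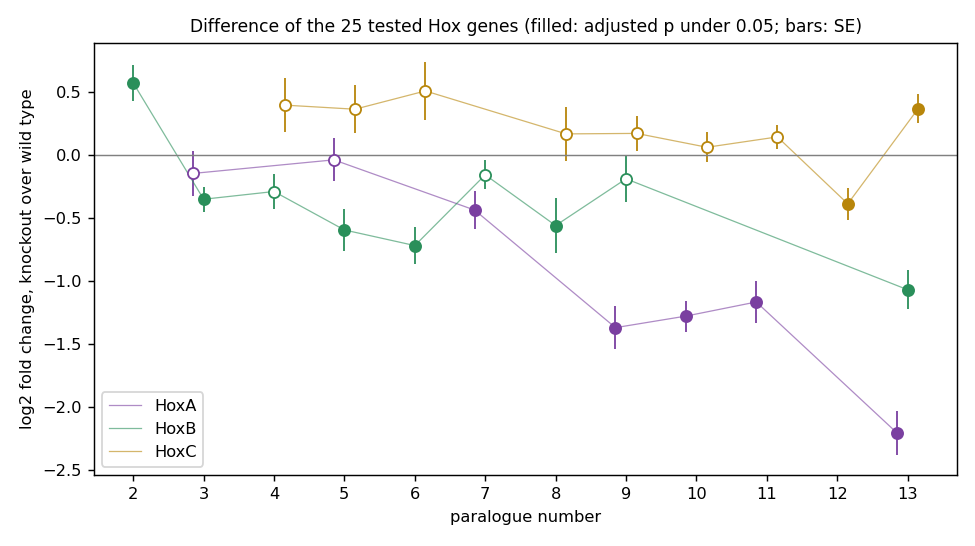
Log2 fold change of the knockout over the wild type, with its SE, against paralogue number for the 25 tested Hox genes of HoxA, HoxB and HoxC (edgeR). Filled points have an adjusted p under 0.05. Hoxa9, Hoxa10, Hoxa11 and Hoxa13 lie between −2.21 and −1.17, Hoxb13 at −1.07, and all HoxC points between −0.39 and 0.51.

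The 5′ end of HoxA gave the largest falls of the 25 tested Hox genes. In 4 Hox genes, Hoxa9, Hoxa10, Hoxa11 and Hoxa13, every knockout library lay below every wild type library, which was 16% of the tested members beside 8.61% of all tested genes with such a lower, non-overlapping knockout (10.8% were higher without overlap, 19.4% either way). To show the stretches before a start of the genes that moved together, 250 bases are printed 5′ to 3′ on the coding strand. They lie before a RefSeq start of these 4 genes and of Hoxa5, a HoxA gene with a log2 fold change of −0.04. Capitals mark ACGTG or GCGTG, the HIF core, on either strand (CACGT and CACGC when read on the printed strand), and ACGTG is also contained in the E-box CACGTG.
Hoxa13: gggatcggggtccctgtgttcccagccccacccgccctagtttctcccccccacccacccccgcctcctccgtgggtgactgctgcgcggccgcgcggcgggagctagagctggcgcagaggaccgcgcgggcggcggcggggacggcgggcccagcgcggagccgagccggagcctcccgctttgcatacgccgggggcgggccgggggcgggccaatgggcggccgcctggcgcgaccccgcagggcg
Hoxa11: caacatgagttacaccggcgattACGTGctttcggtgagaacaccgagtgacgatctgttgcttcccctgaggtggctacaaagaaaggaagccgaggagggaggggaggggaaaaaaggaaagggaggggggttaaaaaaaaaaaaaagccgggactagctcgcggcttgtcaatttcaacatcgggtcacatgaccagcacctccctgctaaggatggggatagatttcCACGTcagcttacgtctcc
Hoxa10: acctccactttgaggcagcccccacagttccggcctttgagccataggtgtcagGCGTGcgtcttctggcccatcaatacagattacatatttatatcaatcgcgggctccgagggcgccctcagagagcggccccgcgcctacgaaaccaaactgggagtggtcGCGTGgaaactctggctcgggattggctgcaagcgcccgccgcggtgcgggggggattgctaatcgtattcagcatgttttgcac
Hoxa9: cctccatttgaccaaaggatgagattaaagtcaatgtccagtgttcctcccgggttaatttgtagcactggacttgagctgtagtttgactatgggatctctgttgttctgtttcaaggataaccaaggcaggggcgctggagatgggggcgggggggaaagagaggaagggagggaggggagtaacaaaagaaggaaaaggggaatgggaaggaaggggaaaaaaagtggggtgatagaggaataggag
Hoxa5: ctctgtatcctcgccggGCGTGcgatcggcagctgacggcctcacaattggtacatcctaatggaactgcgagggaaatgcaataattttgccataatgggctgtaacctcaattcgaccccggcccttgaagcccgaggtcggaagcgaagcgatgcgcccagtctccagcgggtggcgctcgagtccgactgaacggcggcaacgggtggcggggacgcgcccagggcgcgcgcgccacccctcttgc
On the RefSeq build GRCm38.p6 these are chr6:52260881-52261130, chr6:52245811-52246060, chr6:52234940-52235189, chr6:52227371-52227620 and chr6:52204588-52204837, all for genes on the minus strand. For Hoxa10, which has 2 RefSeq starts, the start at the lower coordinate was used. Hoxa11 and Hoxa10 held 2 matches each, Hoxa5 held 1, and Hoxa13 and Hoxa9 held 0. Of all 32851 RefSeq starts 38.6% held a match in the same window, and of the 24 starts of 22 Hox genes 10 did (41.7%). Guanine and cytosine made up 80.0% of the Hoxa13 stretch, 52.0% of that of Hoxa11, 59.2% of that of Hoxa10, 49.6% of that of Hoxa9 and 63.6% of that of Hoxa5, beside a median of 52.4% over all starts. In GENCODE M21, the annotation of that build, the Hoxa13 stretch overlapped no gene. The Hoxa11 stretch overlapped exons of Hoxa11os and Gm28032 on the other strand. The Hoxa10 and Hoxa9 stretches lay within introns of Hoxa10 and Hoxa9 themselves, and that of Hoxa5 within introns of Gm28308, Hoxa3 and Hoxaas3. A match is a description of letters and not a measured binding site.

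Hoxa13 (ENSMUSG00000038203), the most 5′ HoxA gene, which patterns the tail end, the digits and the urogenital tract, showed the largest fall. Its lowest, median and highest wild type libraries had 24.97, 29.6 and 39.1 CPM, and the knockout libraries had 3.69, 6.81 and 10.6 CPM. The gap between the groups was wider than the range of the knockout, and the level was 4.62-fold lower on the fitted scale (log2 fold change −2.21, SE 0.18, edgeR adjusted p = 6.9e-09). Hoxa11 (ENSMUSG00000038210), which patterns the forearm and lower leg and is needed in the uterus, had 13.4, 20.1 and 25.001 CPM in the wild type and 5.04, 8.17 and 11.6 CPM in the knockout. The groups were apart by less than 2 CPM, and the fold change was −1.17 on the log2 scale (SE 0.17, edgeR adjusted p = 1.2e-05). Exons of Hoxa11os on the other strand cover 35.0% of its exon length, and since the use of strand in counting is not given, reads of the pair cannot be told apart.

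Hoxa10 (ENSMUSG00000000938), which patterns the lumbar region and the thigh, had 21.2, 30.8 and 33.5 CPM as the lowest, median and highest wild type values and 8.92, 11.9 and 15.2 CPM in the knockout. Its log2 fold change was −1.28 (SE 0.12, edgeR adjusted p = 5.6e-08), and its exons overlap no other gene. Hoxa9 (ENSMUSG00000038227), a gene also known from blood stem cells and leukaemia, had 6.82, 12.6 and 16.9 CPM in the wild type and 3.31, 5.03 and 6.63 CPM in the knockout, with a log2 fold change of −1.37 (SE 0.17, edgeR adjusted p = 1.9e-06). Its groups were separated only narrowly, by the low value of wild type library 5, and the next wild type library stood at 10.8 CPM.

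These falls were also measured outside the muscle-rich libraries. The 3 knockout libraries with the most muscle message had 3.69 to 6.94 CPM of Hoxa13 and the other 5 had 6.15 to 10.6 CPM, both below the wild type minimum of 24.97 CPM. Without the 4 muscle-rich libraries the log2 fold changes were −1.999 for Hoxa13, −1.01 for Hoxa11, −1.19 for Hoxa10 and −1.31 for Hoxa9, and without the 4 libraries with Y-linked counts they were −2.27, −1.16, −1.23 and −1.44. All 8 of these values stayed past the threshold. Over 28 alternative settings the fold change of Hoxa13 ran from −2.38 to −1.90, that of Hoxa11 from −1.26 to −0.86, that of Hoxa10 from −1.34 to −0.97 and that of Hoxa9 from −1.46 to −1.05, each past the threshold in every setting.

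Toward the 3′ end of HoxA the differences were small. Hoxa7, a gene of the thoracic vertebrae, had 3.00, 5.34 and 5.89 CPM as the lowest, median and highest wild type values and 3.14, 3.57 and 4.22 CPM in the knockout, so the groups overlapped (log2 fold change −0.44, SE 0.15, edgeR adjusted p = 0.021). It missed the threshold with total counts (−0.13), with a muscle score as covariate (−0.32) and without the libraries with Y-linked counts (−0.35). Hoxa5, which patterns the neck and the lung, had a log2 fold change of −0.04 with a 95% interval from −0.37 to 0.30, at 1.27 ± 0.25 CPM in the wild type and 1.24 ± 0.27 CPM in the knockout (SD, n = 8). Hoxa3, which is needed for the thymus and parathyroid, had −0.14 with an interval from −0.50 to 0.21. Neither passed the threshold in any setting, and both signs turned with total counts (0.26 for Hoxa5 and 0.16 for Hoxa3). Exons of Hoxaas3 on the other strand cover 20.4% of Hoxa7, and exons of other genes, most of them on the other strand, cover 27.1% of Hoxa3. The counts of Hoxa7 and Hoxa3 are thus uncertain in the same way as those of Hoxa11.

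Hoxa2, Hoxa4 and Hoxa6 were below the filter, at 1 to 15 counts per library. The ratios of the pooled knockout to wild type counts per effective library size were 0.975 for Hoxa2 (95% interval for counting error 0.688 to 1.39), 1.19 for Hoxa4 (0.749 to 1.92) and 1.08 for Hoxa6 (0.756 to 1.56). All 3 intervals include 1.

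HoxB held 1 large difference, at its 5′ end. Hoxb13 (ENSMUSG00000049604), a gene of the tail tip, the prostate and the distal colon, had 20.8, 34.3 and 37.6 CPM as the lowest, median and highest wild type values and 10.3, 14.5 and 23.6 CPM in the knockout. Wild type library 7 was the 1 low wild type library, and the highest knockout library lay above it, so the groups overlapped. The log2 fold change was −1.07 (SE 0.15, edgeR adjusted p = 1.2e-05), and it stayed past the threshold in all 28 alternative settings, from −1.18 to −0.77. Hoxa9, Hoxa10, Hoxa11, Hoxa13 and Hoxb13 were the only 5 tested Hox genes that were called and at least 2-fold lower, 20% of the 25 beside 4.91% of all tested genes.

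Hoxb9, the highest Hox gene of the wild type and a gene of the thoracic axis, did not pass the threshold. It had 23.5, 40.9 and 52.9 CPM in the wild type and 21.9, 36.4 and 43.8 CPM in the knockout, which overlapped over most of their range (log2 fold change −0.19, 95% interval −0.55 to 0.18, edgeR adjusted p = 0.43). Hoxb6, used in the trunk and the limb bud mesoderm, had 10.7, 14.9 and 16.5 CPM in the wild type and 5.98, 7.59 and 13.4 CPM in the knockout, with a log2 fold change of −0.72 (SE 0.15, edgeR adjusted p = 0.00050). Hoxb5, a gene of the neck and the gut's nerve cells, had 7.20, 9.15 and 12.4 CPM in the wild type and 4.301, 5.55 and 10.2 CPM in the knockout, with −0.59 (SE 0.17, edgeR adjusted p = 0.0066). In both genes most knockout libraries lay under the wild type minimum and the upper ones lay inside the wild type range.

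Hoxb3, which acts in the hindbrain and pharyngeal arches, had 14.5, 21.3 and 24.1 CPM in the wild type and 13.99, 15.6 and 20.2 CPM in the knockout (log2 fold change −0.35, SE 0.10, edgeR adjusted p = 0.0066). Hoxb8, known from microglia and spinal cord patterning, had 1.69, 4.04 and 5.49 CPM in the wild type and 1.88, 2.44 and 3.76 CPM in the knockout (log2 fold change −0.56, SE 0.22, edgeR adjusted p = 0.041). The call of Hoxb8 ended in 16 of the 28 settings. Leaving out any 1 of knockout libraries 1, 2, 4, 6, 7 and 8 or wild type libraries 1, 2, 4, 5 and 8 was enough to end it, with log2 fold changes from −0.57 to −0.47. Total counts ended the calls of Hoxb3 (−0.05), Hoxb5 (−0.30) and Hoxb8 (−0.25).

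Hoxb2, which patterns the hindbrain, was the 1 HoxB gene that rose. It had 4.38, 6.89 and 8.52 CPM in the wild type and 7.63, 9.85 and 12.4 CPM in the knockout, with some overlap (log2 fold change 0.58, SE 0.14, edgeR adjusted p = 0.0024). Exons of Hoxb3os on the other strand cover 27.3% of Hoxb2 and 52.9% of Hoxb3, so these counts are uncertain in the same way as those of Hoxa11. Hoxb4, known from blood progenitors, had −0.29 (interval −0.55 to −0.02) at 7.67 ± 1.17 and 6.30 ± 1.42 CPM (SD, n = 8), and Hoxb7 had −0.16 (interval −0.38 to 0.07). Hoxb4 missed the threshold with all libraries (edgeR adjusted p = 0.087) and passed it without knockout library 1 (−0.38) or without wild type library 5 (−0.35). The signs of Hoxb4 (0.01), Hoxb7 (0.14) and Hoxb9 (0.12) turned with total counts. Hoxb1, a hindbrain gene, had 1 count in all 16 libraries.

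In HoxC 2 of 9 tested genes passed the threshold, with small differences in opposite directions. The 9 genes had log2 fold changes from −0.39 to 0.51, and 8 of the 9 were above 0. Hoxc12, the highest HoxC gene and among the most caudal of the cluster, had 8.85, 12.4 and 18.4 CPM as the lowest, median and highest wild type values and 6.74, 10.1 and 10.8 CPM in the knockout (log2 fold change −0.39, SE 0.13, edgeR adjusted p = 0.017). Its call ended with total counts (−0.07), with the muscle score as covariate (−0.30) and without the muscle-rich libraries (−0.29). Hoxc13, a gene of hair, nail and the tail tip, had 8.26, 10.3 and 13.9 CPM in the wild type and 10.8, 14.1 and 14.9 CPM in the knockout (log2 fold change 0.37, SE 0.11, edgeR adjusted p = 0.010). The rise missed the threshold without the 4 libraries with Y-linked counts (0.25, edgeR adjusted p = 0.12). Both genes overlapped between the groups.

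The other 7 HoxC genes did not pass the threshold. Hoxc4, Hoxc5 and Hoxc6, the neck and upper trunk genes of the cluster, had log2 fold changes of 0.40 (95% interval −0.02 to 0.82), 0.37 (−0.01 to 0.74) and 0.51 (0.07 to 0.96). Hoxc8 and Hoxc9 of the thoracic axis had 0.17 (−0.25 to 0.59) and 0.17 (−0.09 to 0.44). Hoxc10 and Hoxc11, which are used in the lumbosacral axis and the hindlimb, had 0.06 (−0.17 to 0.30) and 0.15 (−0.05 to 0.34), and these intervals hold no fall of the size seen in Hoxa10 and Hoxa11. With total counts Hoxc4, Hoxc5, Hoxc6, Hoxc9, Hoxc10 and Hoxc11 passed as higher, from 0.37 to 0.81, and Hoxc6 also passed without knockout library 5 (0.62). Without the libraries with Y-linked counts Hoxc10 had −0.02.

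Genes of the same paralogue number in different clusters were set against each other within each library, a comparison added after the data were seen, in which the scaling between libraries cancels. The log2 ratio of counts, with 0.5 added, was compared between genotypes by a two-sided exact permutation test for 16 pairs, and p-values were adjusted over the 16 pairs by Benjamini-Hochberg. The ratio of Hoxa13 to Hoxc13 was 0.99, 1.52 and 2.09 as the lowest, median and highest wild type values and −1.54, −1.09 and −0.37 in the knockout. Hoxa13 thus had more counts than Hoxc13 in every wild type library and fewer in every knockout library (difference −2.64, adjusted p = 0.000311 by the exact permutation test). The difference ran from −2.74 to −2.51 when single libraries, the muscle-rich libraries or the libraries with Y-linked counts were left out or 2 was added in place of 0.5.

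Further along the clusters the HoxA or HoxB member lost against its HoxC paralogue as well. The differences of the log2 ratio were −1.33 for Hoxa11 to Hoxc11, −1.34 for Hoxa10 to Hoxc10, −1.51 for Hoxa9 to Hoxc9, −1.47 for Hoxb13 to Hoxc13, −1.22 for Hoxb6 to Hoxc6 and −0.98 for Hoxb5 to Hoxc5. In these 6 pairs, in Hoxa13 to Hoxc13 and in Hoxa13 to Hoxb13 (−1.18) the groups did not overlap, and each had an adjusted p of 0.000311 by the exact permutation test, resting on the smallest unadjusted p that it can give, 0.000155. Hoxa9 to Hoxb9 (−1.18) and Hoxb4 to Hoxc4 (−0.75) also passed, with overlap, which made 10 of 16 pairs. Ratios between other genes were not compared, so no background share stands beside this count, and 48.3% of all tested genes passed singly. The pairs reuse the counts of the Hox genes described above, so they are not separate evidence. Hoxa3 to Hoxb3 (0.18), Hoxa5 to Hoxc5 (−0.41), Hoxa5 to Hoxb5 (0.57), Hoxa7 to Hoxb7 (−0.24), Hoxb8 to Hoxc8 (−0.63) and Hoxb9 to Hoxc9 (−0.34) did not. Of these, Hoxa5 to Hoxb5 passed without knockout library 1 (0.72), wild type library 7 (0.65) or the libraries with Y-linked counts (0.77). Hoxb8 to Hoxc8 passed without knockout library 5 (−0.76), wild type library 3 (−0.73) or wild type library 7 (−0.77), Hoxb9 to Hoxc9 without wild type library 3 (−0.48), and Hoxa7 to Hoxb7 without the muscle-rich libraries (−0.40).

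**Figure D3:**
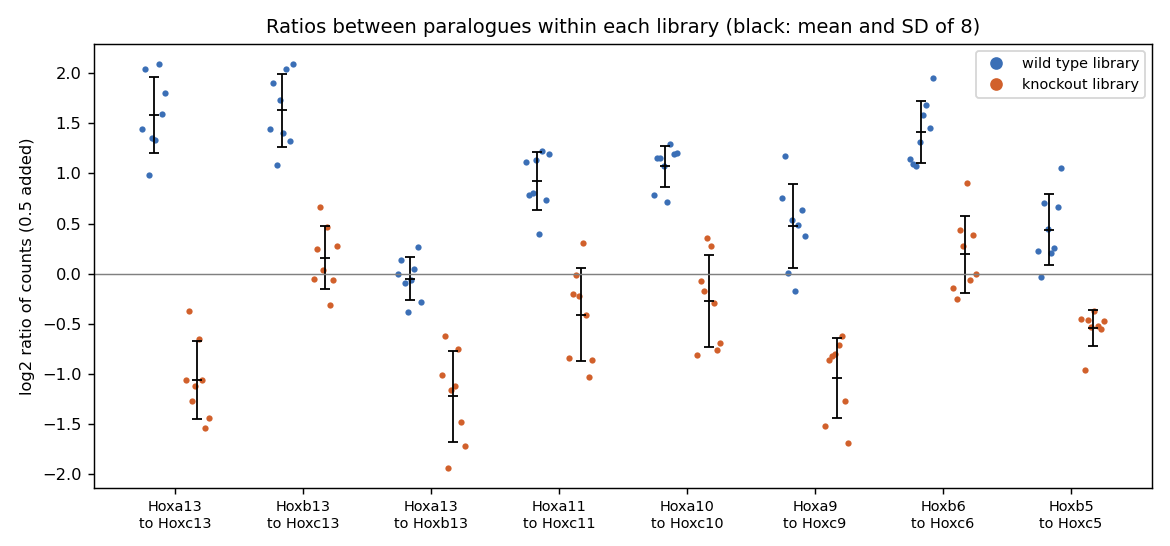
Log2 ratio of counts (0.5 added) between paralogues in each library for the 8 pairs without overlap, with blue points for wild type, orange points for knockout and black bars for the mean and SD of 8. For Hoxa13 to Hoxc13 the wild type points lie from 0.99 to 2.09 and the knockout points from −1.54 to −0.37.

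HoxD was measured by few counts, 73 in all wild type libraries and 478 in all knockout libraries. Hoxd8, a gene of the trunk, had 31 wild type and 245 knockout counts (ratio 6.03, 95% counting interval 4.14 to 9.06). Hoxd4 and Hoxd3, genes of the neck vertebrae, had 8 and 126 counts (12.01, interval 5.91 to 28.4) and 3 and 37 counts (9.40, interval 2.98 to 47.7). Exons of other genes overlap 52.3% of the exon length of Hoxd4 and 62.8% of that of Hoxd3. Among these genes are each other and Hoxd3os1 on the other strand, so these counts are uncertain in the same way as those of Hoxa11. Hoxd9 had 27 and 59 counts (1.67, interval 1.04 to 2.73). These intervals leave out the spread between libraries. In the fit with no filter on low counts Hoxd9 missed the threshold (log2 fold change 0.64, edgeR adjusted p = 0.31), while Hoxd8, Hoxd4 and Hoxd3 passed as higher. The HoxD counts came mainly from knockout libraries 6, 7 and 8, where the 9 genes summed to 6.49 to 8.44 CPM. The other 5 knockout libraries had 0.425 to 2.43 CPM and the wild type libraries 0.448 to 1.59 CPM.

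The same 3 knockout libraries had the most muscle message, the highest endothelial sums (440 to 684 CPM) and the highest mural sums (1770 to 2213 CPM). Without the 4 muscle-rich libraries the ratios were 1.94 for Hoxd8 (interval 1.18 to 3.26), 3.72 for Hoxd4 (1.63 to 9.54), 3.18 for Hoxd3 (0.762 to 18.6) and 0.828 for Hoxd9 (0.409 to 1.64). Wild type library 5, with 11238 CPM of muscle genes and 71.5 CPM of endothelial genes, had 0 counts of Hoxd4 and 0.384 CPM of Hoxd8. The part of other cell types in the HoxD counts was not tested. The 5′ HoxD genes of the tail and digits were at the floor in both genotypes: Hoxd13 had 2 wild type and 3 knockout counts, Hoxd12 had 0 in all, Hoxd11 had 2 and 0, Hoxd10 had 0 and 4, and so had Hoxd1, the most 3′ gene. For Hoxd12, 0 counts in all 16 libraries allow a level of up to 0.0142 CPM.

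**Figure D4:**
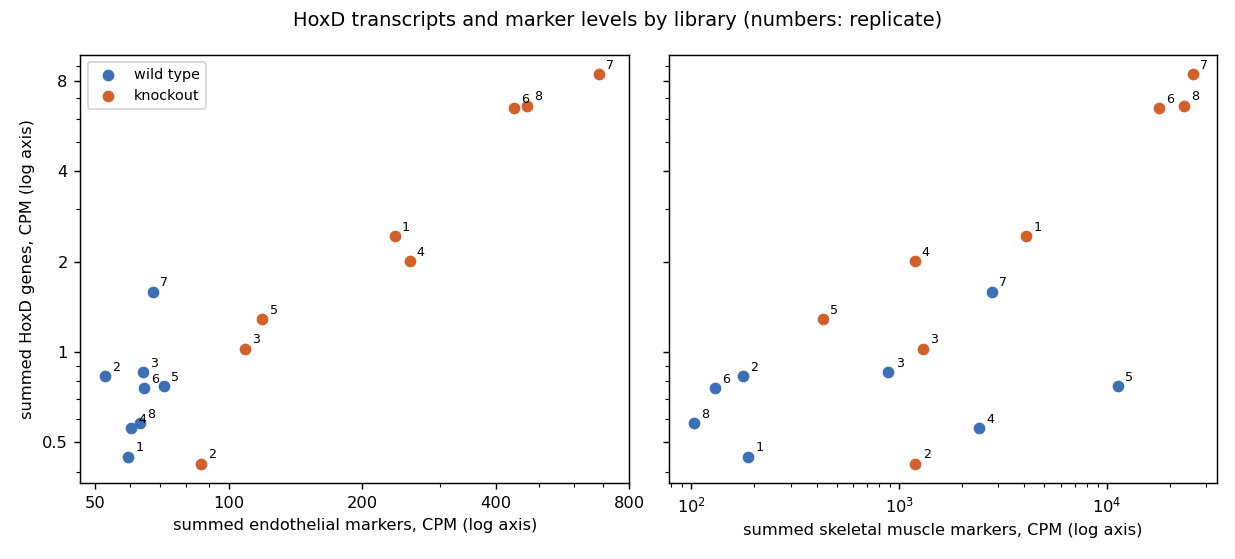
Summed CPM of the 9 HoxD genes against the summed CPM of endothelial markers (left) and skeletal muscle markers (right) in the 16 libraries, on log axes, with replicate numbers beside the points. Knockout libraries 6, 7 and 8 stand highest on all 3 measures, and wild type library 5 has much muscle message with a HoxD sum of 0.768 CPM.

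Hox proteins bind DNA together with TALE homeodomain cofactors of the Pbx, Meis and Pknox families. Of 10 tested cofactors 4 rose and 2 fell, beside 25.6% higher and 22.7% lower among all tested genes. Meis2 rose from 8.68 ± 1.13 to 25.9 ± 4.16 CPM (SD, n = 8; log2 fold change 1.58, edgeR adjusted p = 2.7e-10) and Pknox2 fell from 28.5 ± 4.95 to 7.85 ± 1.70 CPM (−1.87, edgeR adjusted p = 1.7e-09), both without overlap between the groups. Tgif1 (0.51), Tgif2 (0.37) and Pknox1 (0.36) rose. The rise of Tgif2 ended with the muscle score as covariate (0.32).

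Among 8 tested genes that act upstream of Hox genes, 3 rose and 3 fell (75% beside 48.3% of all tested genes), and 5 of these 6 belong to retinoic acid signalling, whose receptors bind at Hox clusters. Cyp26a1, an enzyme that degrades retinoic acid, fell from 43.4 ± 24.5 to 1.79 ± 0.541 CPM (SD, n = 8; log2 fold change −4.56, edgeR adjusted p = 1.3e-07), and Cyp26b1, an enzyme of the same kind, rose from 20.99 ± 2.52 to 154 ± 13.7 CPM (2.87, edgeR adjusted p = 2.1e-15). The receptor Rara rose from 17.2 ± 2.39 to 41.8 ± 6.63 CPM, while Rarg fell from 159 ± 18.4 to 92.0 ± 13.4 CPM and Rarb from 8.03 ± 3.26 to 3.55 ± 0.876 CPM. Groups did not overlap for Cyp26a1, Cyp26b1, Rara and Rarg. Egr2, a hindbrain and tendon regulator, rose (1.27). Cdx1, Cdx2, Cdx4, Wnt3a and T, genes of the embryonic tail bud, were below the filter.

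Polycomb complexes keep Hox genes silent through marks on histones, and Trithorax proteins keep them active. Of 22 tested Polycomb genes 5 rose and 7 fell, and their joint share of 54.5% was near the 48.3% of all tested genes. Aebp2 (0.83), Jarid2 (0.46), Bmi1 (0.40) and Suz12 (0.38) rose with no overlap between groups, Cbx6 fell by 0.52 without overlap, and Ezh2, a methyltransferase of the complex, fell by 0.40 on the log2 scale with overlap. The fall of Ezh2 ended with total counts (−0.09). Of 10 tested Trithorax genes and H3K27 demethylases 3 passed (30%, below that background): Kdm6b (0.69) and Wdr5 (0.30) rose and Psip1 fell by 0.35. Kmt2a, a methyltransferase that keeps 5′ HoxA genes on, had −0.07 at 132 ± 15.7 and 125 ± 28.6 CPM (SD, n = 8). Psip1 had −0.05 with total counts, and 6 of the 10 tested genes of this list then passed, beside 65.4% of all tested genes on that scale.

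Other transcription factors with a positional pattern also differed, 5 higher and 5 lower of 16 tested (62.5% beside 48.3% of all tested genes). Irx3 rose from 2.62 ± 0.854 to 12.9 ± 1.46 CPM (SD, n = 8; log2 fold change 2.29) and Pax9 rose (0.94). Tbx5, the forelimb gene, fell from 4.93 ± 1.40 to 1.05 ± 0.330 CPM (−2.21), Meox1 of the somites from 64.1 ± 13.3 to 19.4 ± 4.60 CPM (−1.72), and Six2 (−1.03) and En1 (−0.98) fell too, all without overlap. Prrx1, a marker of limb and connective tissue mesenchyme, had 568 ± 65.7 and 621 ± 98.9 CPM and a log2 fold change of 0.13, which passed only with total counts (0.43). Of a chosen list of 13 Hox-like homeobox genes outside the clusters 5 were tested and 4 rose, beside 25.6% of all tested genes. These were Barx2 from 0.201 ± 0.250 to 21.6 ± 5.66 CPM, Dlx3 from 0.918 ± 0.480 to 10.5 ± 3.03 CPM, Msx1 (1.26) and Dlx5 (0.79), with no overlap for Barx2 and Dlx3. Barx2 and Dlx3, with wild type medians of 0.140 and 0.692 CPM, could pass the filter on low counts through the knockout alone. The count of risen genes is therefore not a fair comparison with that share. Homeobox genes of the other lists, which moved both ways, are not in this count.

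A transcript between Hox genes at the 5′ end of HoxA was also lower in the knockout. 9530018H14Rik, an unclassified transcript between Hoxa11 and Hoxa13 on chromosome 6 that was chosen for its place, had 4.44, 5.84 and 8.47 CPM as the lowest, median and highest wild type values and 0.436, 0.901 and 1.21 CPM in the knockout, with no overlap (log2 fold change −2.81, SE 0.20, edgeR adjusted p = 5.6e-10). At these levels it could pass the filter on low counts through the wild type alone. Gm28308, whose exons overlap those of Hoxa3, was below the filter, at 0.859 ± 0.258 CPM in the wild type and 0.777 ± 0.111 CPM in the knockout. 5730596B20Rik, whose exons overlap those of Hoxa3 on the other strand, fell by 0.79 (edgeR adjusted p = 0.015), a call that ended with total counts (−0.48), without the muscle-rich libraries (−0.77) and without the libraries with Y-linked counts (−0.73). Of the 5 nearest genes on each side of each cluster, 33 of 40 were tested, 8 rose and 7 fell (45.5%, near the 48.3% of all tested genes), with a median log2 fold change of −0.05. Skap2, next to the 3′ end of HoxA, rose from 23.0 ± 1.84 to 50.6 ± 5.05 CPM (SD, n = 8; log2 fold change 1.14) without overlap, and Ttll6, beside HoxB, fell from 1.69 ± 0.293 to 0.511 ± 0.288 CPM (−1.75).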

How the data were processed

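RNA of mouse tail tendon fascicles was sequenced in 16 libraries, 8 per genotype. The authors deposited 1 column of whole-number counts per library, called matched counts per the file headers. The submitters' processing notes name kallisto, featureCounts and the build GRCm39, with no role or version, and the annotation and use of strand are not given in the sources used here. Symbols were matched for 25614 of 25719 identifiers. Exon lengths, overlaps and gene order came from GENCODE M21 (GRCm38), so gene positions are given by chromosome only. The exception is the printed stretches before HoxA starts, whose coordinates are on the RefSeq build GRCm38.p6.

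Samples were grouped by title. Genes were filtered by expression and fitted with edgeR 4.0.16 in R 4.3.3 (robust quasi-likelihood F test, TMM, two-sided, Benjamini-Hochberg, adjusted p under 0.05), checked on simulated data. CPM are counts scaled to effective library size (total times TMM factor), and 3 counts correspond to 0.145 to 0.336 CPM. Intervals of log2 fold changes come from the SE of the edgeR fit, which includes the spread between libraries. Intervals of pooled count ratios, and floors, cover counting error only. The closest pair of libraries differed by more than sampling noise in each genotype (chi-square over its degrees of freedom was 6.56 for wild type and 8.67 for knockout pairs, over 14096 genes). Alternatives were DESeq2 1.42.0 (size factors, Wald test), limma 3.58.1 (voom), total counts, other filters, a replicate block, a muscle score and each library left out. The members and lists were chosen with earlier results of these data known. The Hox genes were named, with up to 6 called genes of each list, those of largest fold change at a mean log2 CPM of at least 0, and the highest gene of a list where it was not called. Values of some genes are not reported here.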

Additional observations from a re-analysis of the deposited data

Results flagged for a closer look

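The log2 CPM of each tested Hox gene and the total counts were checked within each genotype for a library far from the other 7, and 4 of 52 checks found one, where chance gives about 1 in 20, or 2.60. Hoxa5 in knockout library 4 was high at 1.00, with the next library at 0.52. Hoxb3 in wild type library 7 was low at 3.88, with the next at 4.29. Hoxb13 in wild type library 7 was low at 4.39, with the next at 4.89. Hoxc12 in knockout library 7 was low at 2.78, with the next at 3.22.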

How the results depend on the processing

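Over 28 alternatives the call of 12 of the 25 tested Hox genes was the same throughout and that of 13 changed in at least 1, and no called direction reversed. With total counts 6 Hox genes were lower and 8 higher, beside 9.56% and 55.9% of all tested genes. On that scale 6 of 10 tested Trithorax and demethylase genes passed, beside 65.4% of all tested genes. With no filter on low counts 6 Hox genes were higher, beside 21.4% of all genes then tested. Leaving out single libraries gave 10 to 11 lower and 2 to 3 higher Hox genes, with no share of all genes by direction to set beside them. Knockout and wild type libraries of the same replicate number had correlated deviations of −0.40 to 0.39, so the numbers do not pair them. With the replicate block 11 Hox genes were lower and 4 higher: Hoxb4, Hoxc5 and Hoxc6 passed, Hoxb8 and Tgif2 missed the threshold, and 7010 of all tested genes passed beside 7151 without it. Only for knockout library 2 did the same-numbered wild type library correlate best. Low counts limit the precision of the 14 members below the filter. Where a call changed, the cause was not tested.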
